A study of Mus musculus with 17 samples.

Results

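Ribosome biogenesis genes encode the nucleolar factors that transcribe, modify, cut and assemble pre-ribosomes. The set holds 42 of the 31053 genes in the count table, made up of 41 nucleolar and pre-ribosome factors and Myc, their transcriptional regulator. The genes were chosen by symbol, with earlier results of these data known. They were followed in cardiac fibroblasts over the first 6 days after myocardial infarction. Every one of the 42 symbols matched a single Ensembl gene and passed the filter on low counts.

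The study sorted fibroblasts from infarcted hearts of Collagen1a1-GFP+ reporter mice on the C57BL/6 strain, 8 to 10 weeks old, and sequenced their polyadenylated RNA in bulk. Infarction was made by permanent ligation of the left anterior descending coronary artery, and every library came from an infarcted heart, so the values have no uninjured baseline here. Cells were gated as GFP+/CD31-/CD45-, that is, cells with an active collagen I reporter and without the endothelial and leukocyte surface proteins, after enrichment on feeder-removal beads. The 17 libraries comprised 4 taken 3 days post-infarction (dpi), 1 taken at 5 dpi, and 3 for each of 1, 2, 4 and 6 dpi. The study's methods speak of biological replicates per population, and its figure counts 3 samples at 5 dpi, where this series holds 1. Nothing in the labels said whether libraries of a day came from separate animals, so the p-values measure the spread between these libraries.

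A ribosome is built around RNAs that RNA polymerase I copies from the ribosomal DNA repeats in the nucleolus. Small nucleolar ribonucleoproteins of the box C/D class methylate that precursor, those of the box H/ACA class turn uridines into pseudouridines, and separate sets of processing factors then shape the small and the large subunit. MYC raises the transcription of many of these genes when cells grow, and fibroblasts of the injured heart pass through growth, division and matrix production in the days covered here.

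Total counts per library ran from 8021815 to 22029938 (median 14123952), so that a count of 3 corresponded to between 0.136 and 0.374 CPM (counts per 1000000 counts of the library). Defining fibroblast genes were present throughout, with Col1a1 between 12665 and 208392 counts. Pecam1, which encodes CD31, had 7 to 241 counts and Ptprc, which encodes CD45, 0 to 37. Uty, Kdm5d, Ddx3y and Eif2s3y, which lie on the Y chromosome, together exceeded Xist in the libraries of 2, 3 and 5 dpi and in replicates 2 and 3 of 1 dpi, whereas Xist exceeded them in replicate 1 of 1 dpi and in all libraries of 4 and 6 dpi. Replicate 1 of 1 dpi held 1670 Xist and 84 Y-linked counts and replicate 2 held 461 and 1455. Sex-linked expression therefore changed with day and is given beside the results it touches.

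The CACGTG hexamer is the DNA sequence that MYC and MAX bind as a pair (the E-box), and it was searched in the promoter windows of the set, from 250 bases before to 50 bases after each RefSeq start site on GRCm38.p6. Windows were found for 35 of the 42 genes, and 8 of the 35 (22.9%) held the hexamer, against 7.15% of all 32851 windows and 8.09% of 27025 genes. Those background shares include genes that did not pass the count filter here, and the share among the genes tested was not computed. The hexamer reads the same on both strands and no other motif was searched. The stretches below show the hexamer in capitals with up to 12 bases on each side, 5′ to 3′ on the strand of the gene, cut where the window ends.
Grwd1 (chr7:45830740-45830767, minus strand): gggccggagtcgCACGTGtgaaaccgga
Imp4 (chr1:34439696-34439725, plus strand): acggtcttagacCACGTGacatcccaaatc
Ltv1 (chr10:13193092-13193121, minus strand): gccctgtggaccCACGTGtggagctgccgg
Mybbp1a (chr11:72441355-72441376, plus strand): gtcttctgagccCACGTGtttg
Nop2 (chr6:125131811-125131840, plus strand): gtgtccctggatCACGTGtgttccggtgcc
Pes1 (chr11:3963965-3963994, plus strand): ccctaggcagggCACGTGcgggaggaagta
Tsr1 (chr11:74898092-74898121, plus strand): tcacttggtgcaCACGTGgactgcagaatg
Wdr43 (chr17:71616220-71616249, plus strand): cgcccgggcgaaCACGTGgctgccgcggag
The hexamer began upstream of the start site in Imp4 and Nop2, at positions -121 and -60, and downstream of it in the other genes, at positions 3 to 41 counted from the start site. Between 6 and 1 dpi, 5 of the 8 genes with the hexamer were called lower, with a median log2 fold change of -1.01, and 18 of the 27 genes whose window lacked it, with a median of -1.16. These counts describe letters in a window and not binding.

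As a set, the genes were highest at 1 dpi and lowest at 6 dpi, with a 3 dpi mean above those of its neighbouring days. The set level, the mean over the 42 genes of log2 CPM, was 5.82, 5.50 and 5.38 on day 1, 5.04, 4.81 and 4.91 on day 2, 5.33, 5.26, 4.89 and 5.32 on day 3, 5.02, 4.87 and 4.50 on day 4, 4.86 on day 5 and 4.28, 4.33 and 4.35 on day 6, with days counted from the infarction and libraries in the order of their replicate numbers. All 3 libraries of 6 dpi lay below every other library, and all 3 of 1 dpi lay above every other library. The mean of 1 dpi was 5.57 ± 0.22 (SD, n = 3), that of 2 dpi 4.92 ± 0.11 (n = 3), that of 3 dpi 5.20 ± 0.21 (n = 4), that of 4 dpi 4.80 ± 0.27 (n = 3) and that of 6 dpi 4.32 ± 0.04 (n = 3). The single 5 dpi library, at 4.86, lay within the range of 4 dpi. The libraries of 2, 3 and 4 dpi overlapped, whereas those of 1 and 6 dpi stood apart from all. Over the 14030 genes tested, the same mean moved only between 3.23 and 3.51. As a share of all counts, the 42 genes took 0.444% in replicate 1 of 1 dpi and 0.12% in replicate 2 of 6 dpi, the highest and lowest libraries. In bulk RNA, fewer cells with a high level and less RNA per cell cannot be told apart. The column names of the 3 dpi libraries have another form than those of all other days, and the labels do not say why. Any difference in handling cannot be told apart from day there, which applies to every comparison that includes 3 dpi.

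**Figure D1:**
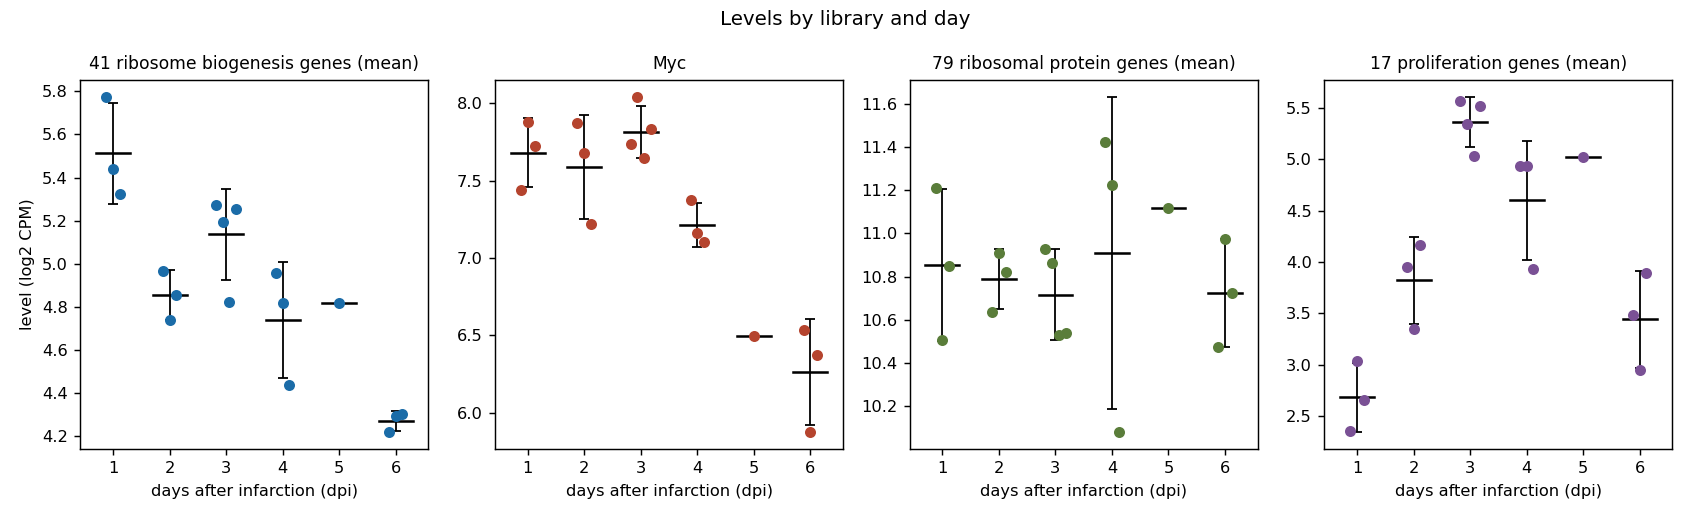
Mean log2 CPM of the 41 genes without Myc, of Myc, of 79 ribosomal protein genes and of 17 proliferation genes in each library (points) by day, with day means (horizontal lines) and SD (bars, none at 5 dpi with 1 library). The 41 genes end at 4.22 to 4.30 at 6 dpi, Myc stays above 7 until 4 dpi, the ribosomal protein genes show no such fall, and the proliferation genes are highest at 3 dpi.

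Myc, on chromosome 15 (chr15:61985391-61990374, plus strand on GRCm38, the build of all positions given), encodes the transcription factor of the set. Its log2 CPM was 7.44, 7.88 and 7.72 on day 1, 7.87, 7.68 and 7.22 on day 2, 7.74, 8.04, 7.65 and 7.83 on day 3, 7.37, 7.17 and 7.10 on day 4, 6.50 on day 5 and 6.53, 5.88 and 6.38 on day 6. The Myc levels of 1 and 3 dpi overlapped, and those of the 5 and 6 dpi libraries lay below every other library. Between 6 and 1 dpi it fell, with a log2 fold change of -1.41 (SE 0.25, adjusted p = 0.00113) by the quasi-likelihood test of edgeR, with p-values adjusted after Benjamini and Hochberg across the 14030 genes tested. From 1 to 2 dpi the Myc estimate was -0.08 (SE 0.24), nearest to 0 of the 42 genes. The estimate for 4 against 3 dpi was -0.61 (SE 0.23, adjusted p = 0.165) and for 6 against 4 dpi -0.93 (SE 0.25, adjusted p = 0.0711), and neither passed the threshold in edgeR's test. Of its partners and antagonists, 11 of 12 listed genes could be tested. Between 6 and 1 dpi Mxd3 rose by 2.46 and Mxd1 by 1.70 on the log2 scale (adjusted p = 0.018 and 0.0284, edgeR), both repressors that compete with MYC for MAX, and Mga fell by 0.88 (adjusted p = 0.0492, edgeR). Max, the shared partner, had an estimate of 0.03 (SE 0.24).

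Across the time course, edgeR's test of any difference among the 6 days called 17 of the 42 genes at an adjusted p under 0.05, against 15.0% of all genes tested. The 17 came from every role group: Myc, Nolc1, Nop56, Nop58, Gar1, Ncl, Npm3, Gnl3, Ddx21, Nat10, Nop14, Ltv1, Rrs1, Nop2, Wdr12, Rrp1b and Noc2l. Leaving out replicate 2 of 3 dpi raised the count to 26, and the share over all genes tested to 24.8%. Among the days with replicates, 33 genes had their highest mean at 1 dpi and 9 at 3 dpi, namely Myc, Tcof1, Nop58, Gar1, Npm3, Ltv1, Rrs1, Noc2l and Ddx18. The lowest mean was that of 6 dpi in 34 genes, of 4 dpi in 5, of 2 dpi in 2 and of 3 dpi in 1. A 3 dpi mean above those of both 2 and 4 dpi was found in 29 genes. The distance between the 3 and 1 dpi levels was not the same in every role group. The mean log2 CPM of the 5 nucleolar proteins was 7.22 ± 0.35 (SD, n = 3) at 1 dpi, 6.54 ± 0.26 (n = 3) at 2 dpi and 7.21 ± 0.14 (n = 4) at 3 dpi, so that 1 and 3 dpi overlapped. The 13 small subunit factors measured 4.78 ± 0.18 (n = 3) at 1 dpi, 4.13 ± 0.10 (n = 3) at 2 dpi and 4.24 ± 0.29 (n = 4) at 3 dpi, and none of the 3 dpi libraries reached those of 1 dpi. The 11 large subunit factors lay between, with 5.13 ± 0.23 (n = 3), 4.56 ± 0.21 (n = 3) and 4.77 ± 0.24 (n = 4) for 1, 2 and 3 dpi. The difference between role groups was not tested.

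**Figure D2:**
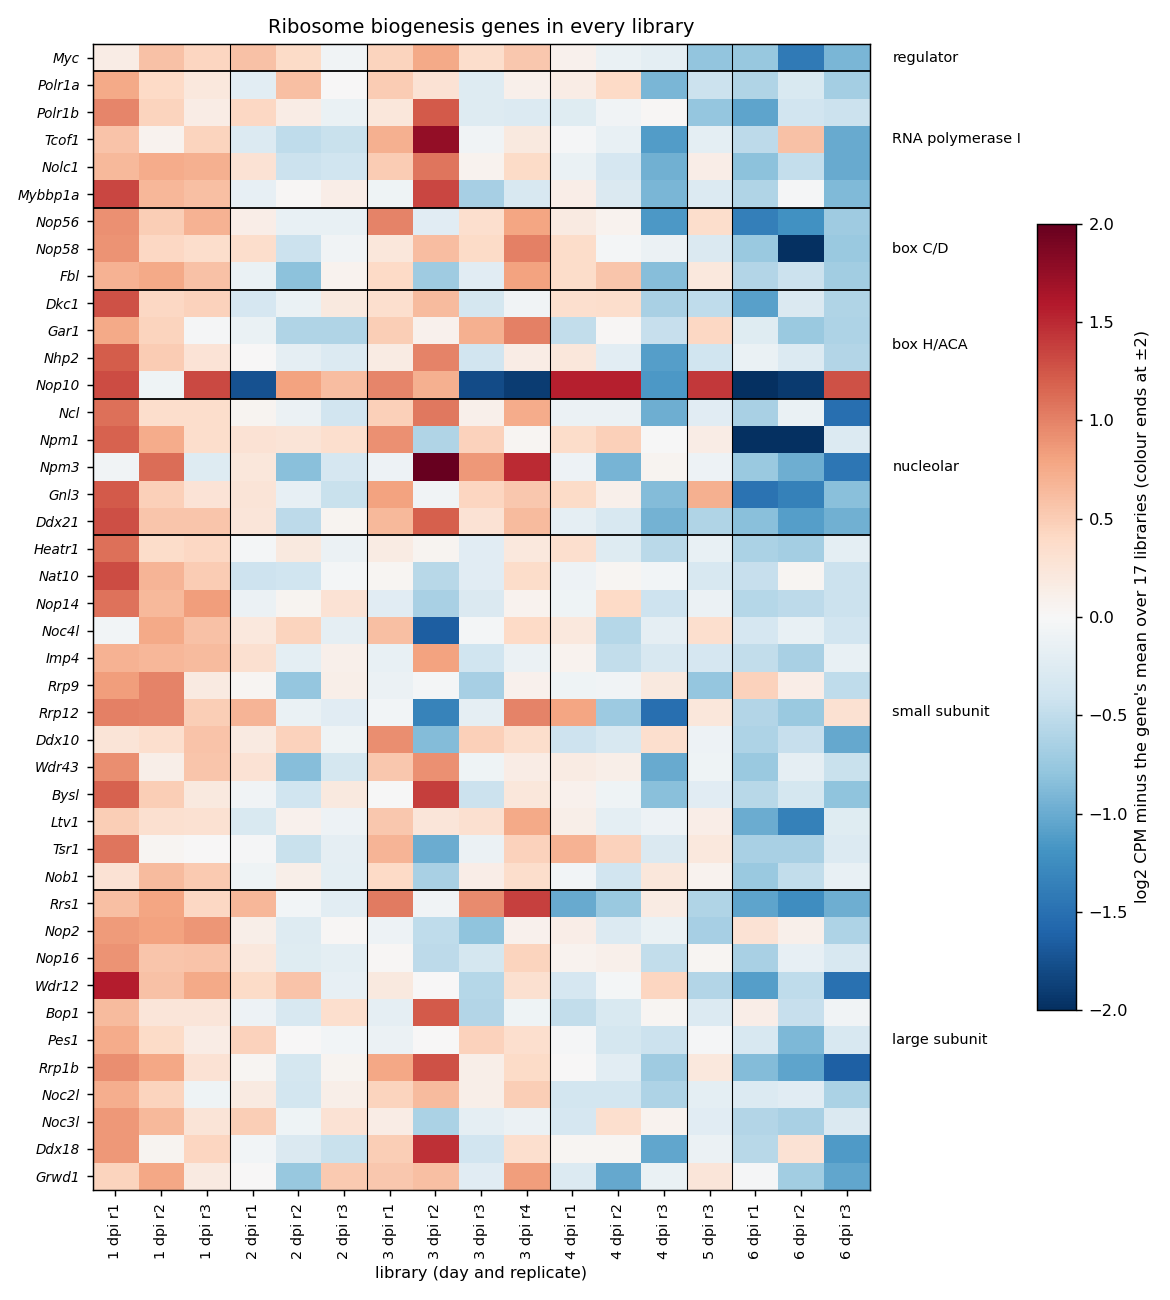
Log2 CPM of each of the 42 genes (rows, by role group) in each of the 17 libraries (columns, by day), as the difference from the gene's own mean over all libraries (colour). Most rows are red at 1 dpi and blue at 6 dpi, replicate 2 of 3 dpi stands out in both directions, and Nop10 varies within days.

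The comparison of 6 with 1 dpi, the ends of the series, showed the set's change at its widest. All 42 genes had a negative log2 fold change, 27 of them were called lower and the median was -1.14, where 5.21% of all genes tested were called lower and their median was 0.03. In 38 of the 42 genes every 6 dpi library lay below every 1 dpi library, against 15.3% of all genes tested. The estimates ran from -2.09 for Npm1 to -0.50 for Bop1. The count of calls depended on single libraries, since it was 12 without replicate 1 of 1 dpi, 13 without replicate 1 and 15 without replicate 2 of 6 dpi, with medians of -1.03, -1.10 and -1.20. All 42 estimates stayed negative in every one of these fits, and the share of all genes called in either direction moved from 12.1% to 5.68, 5.78 and 5.46%. All 4 Y-linked genes were called lower at 6 than at 1 dpi. Replicates 2 and 3 of 1 dpi had more Y-linked counts and all libraries of 6 dpi more Xist, so day and sex-linked expression largely coincide here. Within the libraries with more Xist than Y-linked counts, the set level was 5.82 in the single 1 dpi library and 4.28 to 4.35 in the 3 of 6 dpi. That 1 dpi library also held 84 Y-linked counts. The part of sex-linked expression in the result was not tested.

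**Figure D3:**
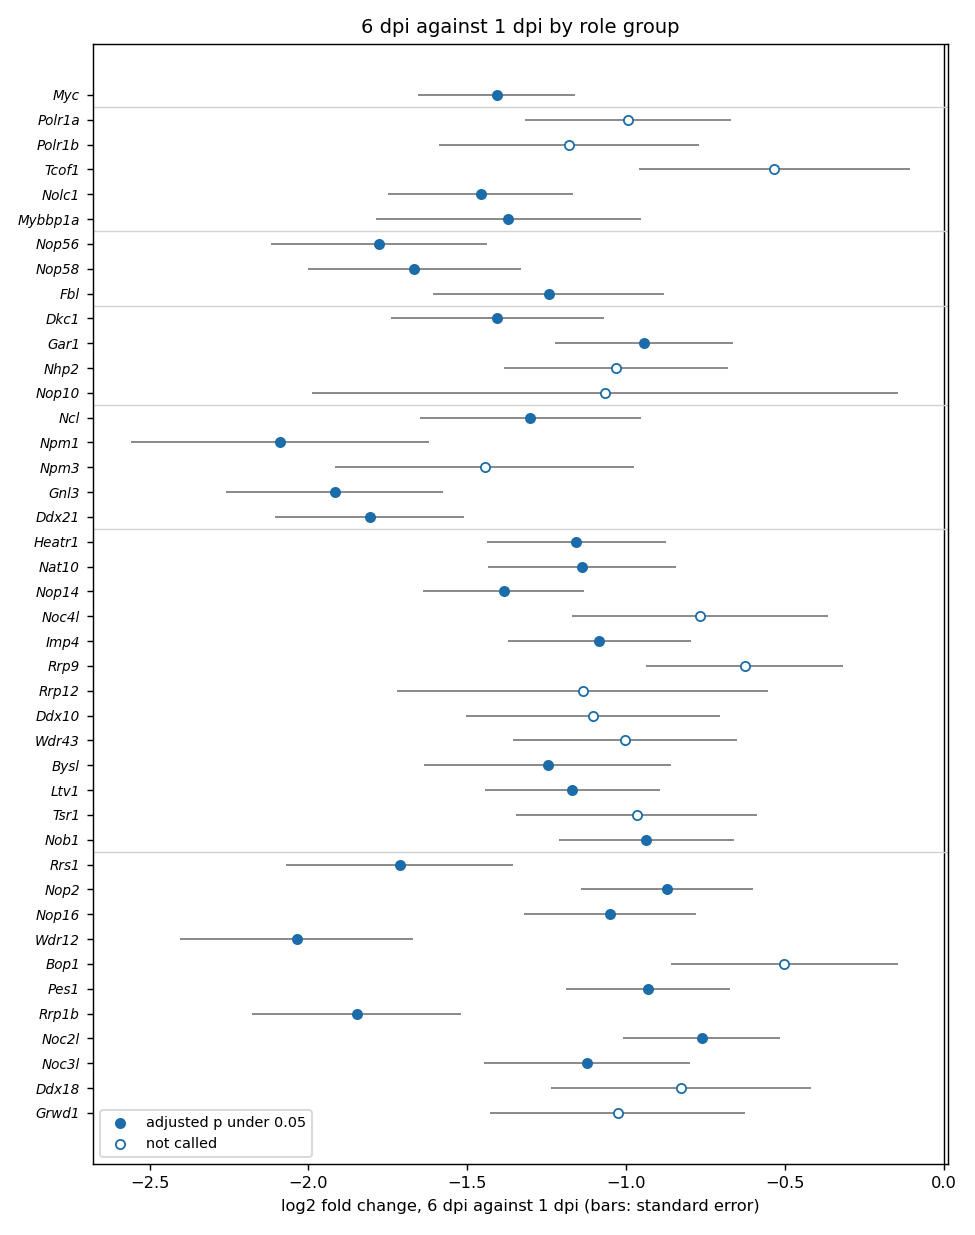
Log2 fold change between 6 and 1 dpi for each of the 42 genes by role group (points) with its standard error (bars), filled where edgeR's adjusted p is under 0.05. Every point lies left of 0, between -2.09 for Npm1 and -0.50 for Bop1, and 27 points are filled.

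Of the 5 genes of RNA polymerase I and its cofactors, 2 were called lower at 6 than at 1 dpi, and the group's median log2 fold change was -1.18. Mybbp1a (chr11:72441355-72451768), a nucleolar protein that binds the ribosomal RNA gene machinery, measured 7.52, 6.85 and 6.78 on day 1, 6.01, 6.21 and 6.32 on day 2, 6.09, 7.52, 5.51 and 5.86 on day 3, 6.32, 5.90 and 5.26 on day 4, 5.90 on day 5 and 5.58, 6.16 and 5.29 on day 6 in log2 CPM. The 1 dpi libraries were the highest together with replicate 2 of 3 dpi, and the 4 and 6 dpi ranges overlapped. Its log2 fold change was -1.37 (SE 0.42, adjusted p = 0.0375) in edgeR's test, a call that was lost without any single 6 dpi library or without replicate 1 or 2 of 1 dpi. Nolc1, a chaperone of small nucleolar ribonucleoproteins, fell by 1.46 (adjusted p = 0.00305, edgeR). Polr1a and Polr1b, the core subunits of the polymerase, had estimates of -0.995 and -1.18 with adjusted p of 0.0505 and 0.0649 in edgeR's test. Tcof1, the treacle cofactor of the polymerase, had -0.53 (SE 0.43).

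All 3 box C/D proteins were called lower, with a median of -1.67. Nop56 (chr2:130274430-130279313), a scaffold of the box C/D particle, measured 7.85, 7.43 and 7.63 on day 1, 7.07, 6.79 and 6.80 on day 2, 7.93, 6.70, 7.28 and 7.72 on day 3, 7.12, 7.00 and 5.79 on day 4, 7.29 on day 5 and 5.58, 5.73 and 6.22 on day 6 in log2 CPM. Replicates 1 and 2 of 6 dpi were the lowest of all libraries, while replicate 3 of 6 dpi lay above replicate 3 of 4 dpi. The log2 fold change was -1.78 (SE 0.34, adjusted p = 0.00226) between 6 and 1 dpi by edgeR. Its exons overlap those of Idh3b on the other strand, and 3 near-identical transcripts of other loci are annotated, none of them in the count table. Nop58, the partner scaffold, fell by 1.67 and Fbl, the methyltransferase fibrillarin, by 1.24, with adjusted p of 0.00339 and 0.031 in edgeR's test. Reads of Fbl are uncertain, since its 3′ end has a near-identical stretch in an annotated Tulp4 transcript.

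Of the 4 box H/ACA proteins, 2 were called lower. Dkc1, the pseudouridine synthase dyskerin, fell by 1.41 (adjusted p = 0.0101, edgeR) and Gar1 by 0.94 (adjusted p = 0.0332, edgeR). Nhp2 (chr11:51619735-51623714), which binds the guide RNA, measured 8.54, 7.83 and 7.60 on day 1, 7.34, 7.15 and 7.06 on day 2, 7.49, 8.33, 6.95 and 7.47 on day 3, 7.56, 7.13 and 6.23 on day 4, 6.94 on day 5 and 7.20, 7.06 and 6.75 on day 6 in log2 CPM. No 6 dpi library reached a 1 dpi library, but the 6 dpi values lay within the range of 2 to 4 dpi. The log2 fold change of Nhp2 was -1.03 (SE 0.35, adjusted p = 0.0604) and did not pass the threshold of edgeR's test. Nop10, the smallest protein of the particle and described here because of its spread, measured 5.29, 3.90 and 5.31 on day 1, 2.25, 4.79 and 4.62 on day 2, 4.97, 4.70, 2.20 and 2.10 on day 3, 5.54, 5.54 and 2.85 on day 4, 5.40 on day 5 and 1.05, 2.08 and 5.27 on day 6. Within 2, 3, 4 and 6 dpi its libraries spanned more than the means of the replicated days did, and its standard error of 0.92 was the largest in the set.

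The 5 nucleolar proteins had the lowest group median, -1.81, and 4 were called lower. Npm1 (chr11:33152287-33163206), nucleophosmin, a chaperone of histones and pre-ribosomes, measured 9.99, 9.56 and 9.17 on day 1, 9.11, 9.07 and 9.15 on day 2, 9.73, 8.22, 9.28 and 8.85 on day 3, 9.18, 9.30 and 8.81 on day 4, 8.96 on day 5 and 6.71, 6.24 and 8.54 on day 6 in log2 CPM. Replicates 1 and 2 of 6 dpi stood far below every other library, while replicate 3 of 6 dpi lay within the range of 3 dpi. The log2 fold change was -2.09 (SE 0.47, adjusted p = 0.00698) by edgeR. Gnl3 (chr14:31012433-31019152), the nucleolar GTPase nucleostemin, measured 7.01, 6.26 and 6.06 on day 1, 6.04, 5.62 and 5.33 on day 2, 6.58, 5.70, 6.20 and 6.32 on day 3, 6.16, 5.88 and 4.91 on day 4, 6.49 on day 5 and 4.31, 4.43 and 4.94 on day 6. Its 6 dpi libraries were the lowest apart from replicate 3 of 4 dpi, which lay between them. Gnl3 fell, with a log2 fold change of -1.92 (SE 0.34, adjusted p = 0.00122) in edgeR's test. Ddx21 (chr10:62580251-62602281), an RNA helicase of the nucleolus, measured 7.25, 6.51 and 6.51 on day 1, 6.21, 5.43 and 6.02 on day 2, 6.61, 7.15, 6.25 and 6.59 on day 3, 5.79, 5.63 and 5.02 on day 4, 5.36 on day 5 and 5.13, 4.85 and 4.99 on day 6. The 1 and 3 dpi libraries formed the upper range and the 6 dpi libraries the lower one, joined only by replicate 3 of 4 dpi. Ddx21 fell, with -1.81 (SE 0.30, adjusted p = 0.000659) by edgeR. Ncl, nucleolin, fell by 1.30 (adjusted p = 0.02, edgeR), and Npm3 had -1.45 (SE 0.47, adjusted p = 0.0504) in the same test, just outside the threshold.

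Among the 13 small subunit factors, 7 were called lower, with a group median of -1.10. Nop14 (chr5:34638536-34660148), a component of the small subunit processome, measured 6.28, 5.84 and 6.03 on day 1, 5.08, 5.25 and 5.48 on day 2, 4.97, 4.54, 4.90 and 5.25 on day 3, 5.10, 5.59 and 4.77 on day 4, 5.06 on day 5 and 4.61, 4.67 and 4.75 on day 6 in log2 CPM. The 3 libraries of 1 dpi lay above all others, and the later days overlapped. Its log2 fold change was -1.39 (SE 0.25, adjusted p = 0.00152) by edgeR. The other called genes were Heatr1, Nat10, Imp4, Bysl, Ltv1 and Nob1, with log2 fold changes from -1.25 for Bysl, an assembly factor also known as bystin, to -0.94 for Nob1, the nuclease that trims the small subunit RNA. The 6 genes not called were Noc4l, Rrp9, Rrp12, Ddx10, Wdr43 and Tsr1, with estimates from -1.14 to -0.63.

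Among the 11 large subunit factors, 8 were called lower, with a group median of -1.03. Wdr12 (chr1:60069785-60098645), which forms the PeBoW complex with Pes1 and Bop1, measured 4.95, 3.96 and 4.13 on day 1, 3.76, 3.94 and 3.21 on day 2, 3.57, 3.38, 2.80 and 3.69 on day 3, 3.04, 3.34 and 3.81 on day 4, 2.79 on day 5 and 2.28, 2.87 and 1.88 on day 6 in log2 CPM. The range of 6 dpi lay below 1 dpi but overlapped 3 and 5 dpi. Wdr12 fell, with -2.04 (SE 0.37, adjusted p = 0.00142) by edgeR, while Pes1 fell by 0.93 (adjusted p = 0.0241, edgeR) and Bop1 had -0.50 (SE 0.36). The partners of this complex thus had estimates at both ends of the set's range. Noc2l (chr4:156236010-156247616), a nucleolar factor of large subunit maturation, measured 6.80, 6.53 and 5.99 on day 1, 6.26, 5.71 and 6.19 on day 2, 6.53, 6.72, 6.20 and 6.57 on day 3, 5.72, 5.71 and 5.46 on day 4, 5.89 on day 5 and 5.82, 5.85 and 5.45 on day 6. Its 3 dpi libraries lay within the range of 1 dpi, and those of 4 and 6 dpi lay below both. Noc2l had -0.76 (SE 0.25, adjusted p = 0.0493) for 6 against 1 dpi by edgeR. Rrp1b fell by 1.85 and Rrs1 by 1.71, with adjusted p of 0.00129 and 0.00417 in the same test. Nop2, Nop16 and Noc3l were called with falls between 0.87 and 1.12, and Ddx18 and Grwd1 were not called, with -0.83 and -1.03. The calls of Gar1, Nop2 and Noc2l were each lost in at least 4 of the 6 fits that left out a library of 1 or 6 dpi.

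From 1 to 2 dpi all 42 genes had negative estimates and no single one passed the threshold, with a median of -0.73 (0.01 over all genes tested) and a range from -1.15 for Nat10, the acetyltransferase of small subunit RNA, to -0.08 for Myc. In 26 genes every 2 dpi library lay below every 1 dpi library, against 7.03% of all genes. edgeR called 0 of the 42 genes, where 0.178% of all genes were called in either direction. In its test 19 of the 42 had an unadjusted p under 0.05, as had 1063 of all 14030 genes. DESeq2 called 1, and 0.741% of all genes in either direction. Without replicate 2 of 1 dpi or replicate 3 of 2 dpi, 41 of the 42 estimates were negative. Without replicate 1 of 1 dpi, the library with more Xist, the median was -0.51.

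From 2 to 3 dpi the estimates were mostly positive, 34 of 42, with a median of 0.28 (0.04 over all genes). The libraries of both days had more Y-linked than Xist counts. Gar1 (chr3:129824912-129831396), a protein of the box H/ACA particle, measured 5.67, 5.36 and 4.90 on day 1, 4.79, 4.33 and 4.32 on day 2, 5.41, 5.01, 5.63 and 5.92 on day 3, 4.43, 4.94 and 4.46 on day 4, 5.33 on day 5 and 4.68, 4.17 and 4.30 on day 6 in log2 CPM. All 4 libraries of 3 dpi exceeded the 3 of 2 dpi, and the 4 and 6 dpi libraries were again lower. Gar1 was the one gene called, with 1.04 (SE 0.27, adjusted p = 0.0396) in edgeR's test, where 1.82% of all genes were called higher. DESeq2 called 3 genes, and 7.43% of all genes in either direction, where edgeR called 2.94%. The Gar1 call was lost when any one of 6 of the 7 libraries of these days was left out. The nucleolar proteins had the highest group median, 0.77, and the small subunit factors the lowest, 0.15. Markers of leukocytes moved with this step, since the summed level of 9 genes was 12.6 to 24.3 CPM at 2 dpi and 54.9 to 209 CPM at 3 dpi, with Cd3e at 0 in every library, and Lyz2 and Cd14 were called higher. The 6 mural cell genes summed to 59.9 to 75.7 CPM at 2 dpi and 81.0 to 142 CPM at 3 dpi, with Cspg4 and Notch3 called higher. Of the 7 endothelial genes, which summed to 43.5 to 57.9 and 16.9 to 91.6 CPM, Egfl7 was called higher. Of 8 fibroblast genes, Lum was called lower. The 13 mitochondrial genes took 1.35 to 1.70% of counts at 2 dpi and 0.321 to 0.782% at 3 dpi. The part of these values in the result was not tested.

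From 3 to 4 dpi 34 of 42 estimates were negative, with a median of -0.48 (-0.03 over all genes), and 3 genes were called lower, against 1.08% of all genes. Rrs1 (chr1:9545408-9547455), an assembly factor of the large subunit, measured 5.00, 5.20 and 4.83 on day 1, 5.07, 4.35 and 4.20 on day 2, 5.44, 4.34, 5.35 and 5.77 on day 3, 3.40, 3.66 and 4.56 on day 4, 3.81 on day 5 and 3.34, 3.16 and 3.44 on day 6 in log2 CPM. Replicates 1, 3 and 4 of 3 dpi were the highest values of the series, while replicate 2 of 3 dpi lay below replicate 3 of 4 dpi. Rrs1 had -1.37 (SE 0.34, adjusted p = 0.0345) for 4 against 3 dpi by edgeR, Ddx21 -1.18 (SE 0.28, adjusted p = 0.0285) and Noc2l -0.88 (SE 0.23, adjusted p = 0.0477). Calls by DESeq2 were 8, where 6.27% of all genes were called in either direction against 2.71% by edgeR. Without replicate 1 or replicate 2 of 4 dpi edgeR's count was 0, with 1.08 and 0.904% of all genes called. It was 1 without replicate 3 of 4 dpi or without replicate 1 or 4 of 3 dpi, with 2.19, 1.29 and 1.68%. The libraries of 3 dpi had more Y-linked and those of 4 dpi more Xist counts, so that day and sex-linked expression cannot be told apart here. Markers of other cells moved with this step as well. The 7 cardiomyocyte genes summed to 9.28 to 14.3 CPM at 3 dpi and 40.9 to 69.8 CPM at 4 dpi, with 4 called higher, and the 9 leukocyte genes to 54.9 to 209 and 21.2 to 29.6 CPM, with Cd14 called lower. Of 8 fibroblast genes, Lum was called higher. The mitochondrial share was 0.321 to 0.782% at 3 dpi and 1.22 to 2.04% at 4 dpi. The part of these values in the result was not tested.

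From 4 to 6 dpi 37 of 42 estimates were negative, with a median of -0.39 (-0.02 over all genes), among libraries that all had more Xist than Y-linked counts. edgeR called 0 of the 42, against 0.513% of all genes in either direction. In its test 11 of the 42 had an unadjusted p under 0.05, as had 2798 of all 14030 genes. DESeq2 called 4, with 5.75% of all genes. Without replicate 3 of 6 dpi edgeR called 6 genes lower and 10.0% of all genes, and without replicate 3 of 4 dpi it called 1 and 1.59%. Myc had -0.93, and of the groups of several genes the box C/D proteins had the lowest median, -0.88.

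The window from 3 to 5 dpi, which the study defined as the transition into reparative fibroblasts, was compared with the days before and after it. The study drew this window in part from marker genes in bulk RNA that includes these libraries, so it is not independent of them. Against 1 and 2 dpi, 35 of 42 estimates were negative, with a median of -0.28 (0.00 over all genes), and 2 genes were called lower, against 2.24% of all genes. Nop2 (chr6:125131909-125144753), a methyltransferase of large subunit RNA, measured 5.63, 5.58 and 5.66 on day 1, 4.89, 4.51 and 4.80 on day 2, 4.67, 4.27, 3.97 and 4.86 on day 3, 4.91, 4.50 and 4.65 on day 4, 4.11 on day 5 and 5.07, 4.88 and 4.16 on day 6 in log2 CPM. The 1 dpi libraries lay above all others, and 2 of the 6 dpi libraries lay above most of the window. Nop2 had -0.75 (SE 0.20, adjusted p = 0.0222) and Nop14 -0.60 (SE 0.18, adjusted p = 0.0452) in edgeR's test. With only the libraries whose Y-linked counts exceeded Xist, 0 were called by edgeR, against 6.02% of all genes, and the median was -0.17. In that fit 6 of the 42 had an unadjusted p under 0.05, and the share of all genes at that cut was not computed. Leaving out replicate 2 of 3 dpi gave 6 calls and 11.5% of all genes in either direction, against 7.48% with every library. Leaving out any other library gave 1 to 3 calls and 5.6 to 8.51% of all genes. The mural cell genes Rgs5, Cspg4 and Notch3 and the leukocyte gene Lyz2 were called higher in the window, and the list of 6 mural genes summed to 40.4 to 84.3 CPM before it and 81.0 to 205.5 CPM within it. Of 8 fibroblast genes, 3 were called higher and 2 lower in the window. Xist and all 4 Y-linked genes were called lower in the window. The part of these markers in the result was not tested.

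Against 6 dpi the window was higher, with 40 of 42 estimates positive and a median of 0.53 (0.01 over all genes). The 11 genes called higher, against 5.29% of all genes, were Myc, Nolc1, Nop56, Nop58, Npm1, Npm3, Gnl3, Ddx21, Ltv1, Rrs1 and Rrp1b. Gnl3 had the largest estimate, 1.57 (SE 0.31, adjusted p = 0.00434), followed by Npm1 with 1.54 (SE 0.42, adjusted p = 0.0242), both by edgeR. In edgeR's test Myc had 0.89 (SE 0.22, adjusted p = 0.014). Only Nop58, Ltv1 and Rrp1b had every window library above every 6 dpi library, against 4.27% of all genes. The count fell to 4 without replicate 1 of 6 dpi, to 2 without replicate 2 of 6 dpi and to 4 without the 3 dpi libraries, where the share of all genes called in either direction fell from 11.5% to 3.5, 2.14 and 5.63%. The 6 dpi libraries and those of 4 dpi had more Xist than Y-linked counts, and those of 3 and 5 dpi more Y-linked counts, and Xist was called lower and Ddx3y higher in the window. Of the 7 cardiomyocyte genes 6 were called lower in the window (median -2.42), and they summed to 9.28 to 69.8 CPM there and 76.9 to 157 CPM at 6 dpi. The 9 leukocyte genes summed to 21.2 to 209 and 19.4 to 26.3 CPM, with Cd14 called higher. Of 8 fibroblast genes, Lum was called lower in the window. The part of these values in the result was not tested. This comparison shares the 6 dpi libraries with that of 6 and 1 dpi, and their values stand side by side only.

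Other genes of ribosome production were read from lists that do not overlap the 42. Of 89 further biogenesis factors, 35 were called lower at 6 than at 1 dpi and none higher, with 85 negative estimates and a median of -0.93. The called genes with the largest changes were Mphosph10 (-2.24), Wdr75 (-2.14) and Ebna1bp2 (-1.90), factors of pre-ribosome processing. Of 19 further genes of RNA polymerases I and III, 4 were called lower, led by Taf1d (-1.76), Polr1e (-1.54) and Rrn3 (-1.31), and their median was -0.66. The 79 ribosomal protein genes, the structural parts of the finished ribosome, differed in this count: 2 were called lower, Rpl39 (-1.77) and Rpl13a (-1.03), 52 estimates were negative and the median was -0.11. Their mean level was 10.86 ± 0.35 (SD, n = 3) at 1 dpi and 10.73 ± 0.25 (n = 3) at 6 dpi. No test of the difference between these lists was made.

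Growth genes outside the nucleolus and cell division genes were read in the same way. Of 20 growth genes known as MYC targets, 14 were called lower between 6 and 1 dpi, with a median of -1.05, led by Hspd1 (-2.26), a mitochondrial chaperonin, Ppat (-2.10), an enzyme of purine synthesis, and C1qbp (-1.50). Of 17 proliferation genes, 6 were called higher and 2 lower in that comparison, with Ccnb1 at 2.91, Mki67 at 2.90 and Ccnb2 at 2.88. The proliferation level was 2.68 ± 0.34 (SD, n = 3) at 1 dpi, 5.37 ± 0.25 (n = 4) at 3 dpi and 3.44 ± 0.47 (n = 3) at 6 dpi. By this mean of log2 levels, the biogenesis set was at its highest on the day when the proliferation genes were at their lowest. The summed level of the 17 genes instead reached its lowest values at 6 dpi. It was 171 to 374 CPM there, overlapping 224 to 461 CPM at 1 dpi. Of their estimates for 6 against 1 dpi, 10 were positive and 7 negative. Of 9 p53 target genes, 2 were called higher at 6 than at 1 dpi, Bbc3 (1.64) and Phlda3 (1.12), and Eda2r was called lower (-1.70).

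**Figure D4:**
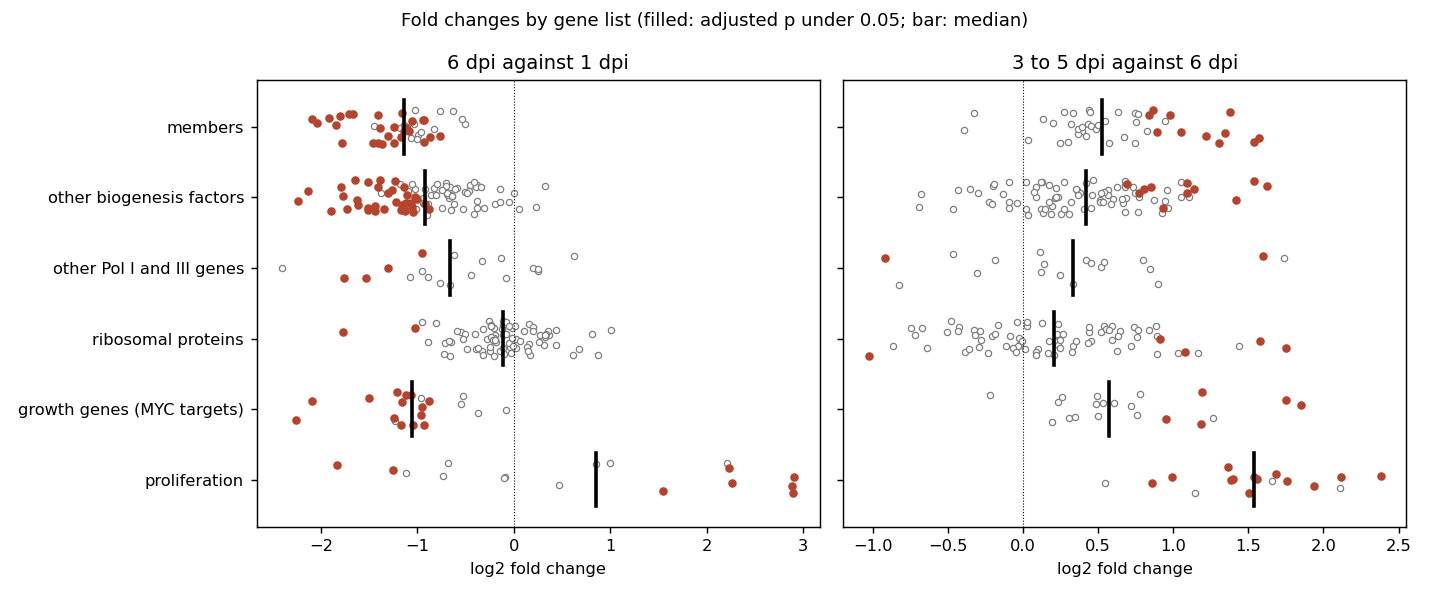
Log2 fold change of each gene (points, filled where edgeR's adjusted p is under 0.05) in 6 gene lists, for 6 against 1 dpi (left) and 3 to 5 against 6 dpi (right), with the list median (bar). The 42 members have medians of -1.14 and 0.53, and the ribosomal proteins medians of -0.11 and 0.20.

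Markers of other cells changed with day as well. The summed level of 7 cardiomyocyte genes was 18.8 to 41.1 CPM at 1 dpi and 76.9 to 157 CPM at 6 dpi, and 5 of them were called higher, led by Actc1 (2.43). The 6 mural cell genes summed to 40.4 to 84.3 CPM at 1 dpi and 132 to 160 CPM at 6 dpi, with 3 called higher, led by Cspg4 (2.47). The 7 endothelial genes summed to 28.7 to 43.2 CPM at 1 dpi and 28.5 to 43.1 CPM at 6 dpi, and the 9 leukocyte genes to 15.7 to 40.0 and 19.4 to 26.3 CPM. Among 8 fibroblast genes, 3 collagen genes rose between 6 and 1 dpi, led by Col1a1 (2.39), and 1 gene of the list, Pdgfra, was called lower. Of 15 genes induced by tissue dissociation, the heat shock genes Hspa1b (-2.15) and Hspa1a (-1.66) were called lower. The mitochondrial share of counts was 1.45 to 1.86% at 1 dpi and 0.425, 0.458 and 1.71% in replicates 1, 2 and 3 of 6 dpi, while the set level of those 3 libraries was 4.28, 4.33 and 4.35. The part of these markers in the set's change was not tested.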

How the data were processed

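The authors sequenced 3′ ends of polyadenylated RNA by a bulk form of MARS-seq and, per the submitters' processing notes and the study's methods, demultiplexed with bcl2fastq 1.2.4, aligned to mm10 with STAR and assigned reads to genes with featureCounts. The deposited values are raw counts for 31053 genes in 17 libraries, 10484 of them without a count. The strand setting of the counting is not given in the sources used here, and the exons of 19 of the 42 genes overlap a gene on the other strand. For Gnl3, Dkc1, Heatr1, Rrp9 and Bysl the overlapping gene had more counts than the member. Within their last 600 bases, Nop56, Fbl, Npm3, Bysl, Tsr1, Wdr12, Noc2l and Ddx18 share at least 200 bases at 95% identity or more with another annotated transcript. Gene positions come from GENCODE on GRCm38, another release than the one used for counting.

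The 14030 genes that reached 10 counts in 3 or more libraries entered edgeR 4.0.16 (R 4.3.3) and its quasi-likelihood test on TMM library sizes, with day as a factor of 6 levels over all 17 libraries. Benjamini-Hochberg adjustment covered all genes tested, and an adjusted p under 0.05 counted as a call. Levels are given as log2 CPM after adding a prior count of 2, and the standard error is the absolute log2 fold change divided by the square root of F. Between 8021815 and 22029938 counts per library limit the precision of genes with few counts. Alternatives were DESeq2 1.42.0, its size factors, all genes with at least 1 count, a replicate block, only the days compared, each library left out, no 3 dpi libraries, and only libraries whose Y-linked counts exceeded Xist. The calculation was tested on simulated data.

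The members and the gene lists were chosen with earlier results of these data known. Values in every library are given for Myc, for the gene with the most counts of each role group, and for the 2 largest rises and the 2 largest falls among the genes called in a comparison. Of the other lists, at most the 3 called genes with the largest change are named. Max, whose estimate is also given, Nop10 and Pdgfra were named after their values were seen. The library of 5 dpi is replicate 3 by its title, used here, and 1 by its description and column name. Promoter windows are RefSeq's, and genes without a window are Myc, Tcof1, Fbl, Npm1, Rrp12, Rrs1 and Bop1.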

Additional observations from a re-analysis of the deposited data

Results flagged for a closer look

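The set level of replicate 3 of 3 dpi, 4.89 log2 CPM, was an outlier by Dixon's test at the 95% level, since the remaining libraries of 3 dpi measured 5.26 to 5.33. The distance to the nearest one made up 0.845 of the range at 3 dpi. The test was run on 43 measures (the set level and each of the 42 genes at 3 dpi), of which 1 passed, and chance alone flags about 2.1 of 43. The mean level of endothelial markers was 3.31 log2 CPM in this library and 0.55 to 1.83 in the remaining libraries of the day, and that of leukocyte markers 3.44 against 1.36 to 3.48. The part of these markers in its set level was not tested. Over all genes, however, replicate 2 differed most from the other libraries of 3 dpi. The chi-square of raw counts per degree of freedom was 174.6 to 229.7 in pairs with replicate 2 and 24.5 to 38.6 in pairs without it. The set level of replicate 2, 5.26, joined the highest RNA polymerase I level of the day, 6.09, with the lowest small subunit level, 3.93.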

How the results depend on the processing

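Under the alternatives run, no median of the set and no gene that had been called in a comparison changed sign. Estimates that had not been called did: the negative ones for 4 against 3 dpi numbered 34 with every library and 29 without replicate 3 of 4 dpi, and the positive ones for 3 to 5 against 1 to 2 dpi 7 and, with only libraries whose Y-linked counts exceeded Xist, 15. Of the values given for the set, 197 stayed near the main value and 48 moved, and of those for single genes 448 kept their call and 170 lost it with the same direction. With DESeq2 the counts of members called were 1 for 2 against 1 dpi, 3 for 3 against 2, 8 for 4 against 3 and 4 for 6 against 4 dpi. In that order DESeq2 called 0.741, 7.43, 6.27 and 5.75% of all genes, where edgeR called 0.178, 2.94, 2.71 and 0.513%. With every gene of at least 1 count they were 30 for the time course, 4 for 3 against 2, 11 for 4 against 3 and 4 for 6 against 4 dpi. The shares of all genes called were then 18.1, 4.76, 4.21 and 4.29%, against 15.0, 2.94, 2.71 and 0.513% in the main fit. With only the days compared they were 0 for 3 against 2, 0 for 4 against 3 and 5 for 3 to 5 against 6 dpi. All-gene shares in these fits were 1.95, 0.976 and 6.87%, against 2.94, 2.71 and 11.5% in the main fit. Without the 3 dpi libraries the count for 3 to 5 against 6 dpi was 4, with 5.63% of all genes called. With only libraries whose Y-linked counts exceeded Xist, 3 to 5 against 1 to 2 dpi gave 0, where 6.02% of all genes were called. In the same libraries the median for 2 against 1 dpi was -0.51. The cause of these changes was not tested.

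With a replicate block the counts were 0 for 3 against 2, 1 for 4 against 3 and 1 for 3 to 5 against 1 to 2 dpi, while 6 against 1 dpi had a count of 27 again. In that order 1.24, 1.73, 6.31 and 10.8% of all genes were called, against 2.94, 2.71, 7.48 and 12.1% in the main fit. With the 5 dpi library as replicate 1, an alternative chosen after seeing the data, the block gave the same counts for these comparisons. For 3 to 5 against 6 dpi it gave 7 and 7.11% of all genes, where it had given 9 and 7.93%. Deviations of libraries that share a replicate number correlated by 0.0108 on average over 30 pairs (-0.108 to 0.2), against -0.00512 over 72 other pairs. The main fit did not treat the numbers as a pairing, since the labels give them no meaning.

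With each library left out in turn, the counts ranged over 12 to 26 for the time course, 12 to 25 for 6 against 1, 0 to 1 for 3 against 2, 0 to 4 for 4 against 3, 0 to 6 for 6 against 4, 1 to 6 for 3 to 5 against 1 to 2 and 2 to 14 for 3 to 5 against 6 dpi, and the median for 2 against 1 dpi over -0.79 to -0.51. The share of all genes called moved as well, over 9.38 to 24.8% for the time course. It was 5.46 to 18.5% for 6 against 1, 0.33 to 5.25% for 3 against 2 and 0.904 to 5.17% for 4 against 3. For 6 against 4 it was 0.0215 to 10%, and for 3 to 5 against 1 to 2 it was 5.6 to 11.5%. For 3 to 5 against 6 dpi it was 2.14 to 21%. Every fit that left out a library of 1 or 6 dpi called fewer than 27 genes for 6 against 1 dpi, with all 42 estimates negative. With 3 libraries on most days and 1 at 5 dpi, differences between neighbouring days were not resolved for most single genes.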
